A study of Mus musculus with 10 samples.

Results

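A set of 171 microarray probes, of 23473 on the chip, read higher in every first-round sample of induced cardiomyocyte-like cells (iCM) than in either mouse embryonic fibroblasts (MEF) or mouse heart tissue. The probes were selected on their measured values in the authors' value table, where empty values and values under 25 were set to 25. On each of the 6 first-round iCM arrays a member was at least 2 times MEF and at least 2 times heart, and heart itself lay between 0.5 and 2 times MEF. The levels on those 8 arrays are therefore a description of the choice, and no test was made on them. The files do not pair the probes with genes, so the members are given by probe identifier and no role can be stated for any of them.

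The series holds 10 one-colour arrays, with 1 array per sample. GMT/miR-133 cells at days 3, 7 and 18 were MEF given GMT by pMx retrovirus together with a transfected synthetic mimic of mature miR-133a, and GMT cells at the same days received GMT alone. A GMT/miR-133/Snai1 sample and a second GMT/miR-133 sample, both of day 7, were added to these. The title and treatment of that second sample name miR-133, whereas its description names GMT alone. All 8 iCM samples were sorted for GFP under the cardiac α-MHC promoter, so they hold only the induced cells in which that promoter was active. MEF and heart are labelled as untreated, and the age and strain of the animals are not given in the labels used here. Retrovirus, delivered factors, time in culture and sorting all separate the iCM arrays from MEF, and their parts in a difference cannot be told apart. The 3 GMT arrays had no mimic, and the rule required the excess on them too, so their excess is part of the choice and not a result. Heart is a whole tissue of several cell types, and in such bulk RNA fewer cells of a type and less RNA per cell cannot be told apart.

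GMT stands for the transcription factors Gata4, Mef2c and Tbx5, which are central to heart development and together can turn fibroblasts toward a cardiomyocyte-like state. miR-133 is a muscle microRNA that lowers the protein output of its target messages, among them that of Snai1, a transcription factor that maintains the mesenchymal program of fibroblasts. Reprogramming by delivered factors commonly yields cells that share some expression with the starting cell and some with the intended cell, and that also express genes typical of neither.

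Between 18259 and 20583 probes per array, or 77.8% to 87.7%, were above the 95th percentile of the array's blank spots. In each arm the value table and the scanner files exchange days 3 and 7: a column given 1 of these days follows the scanner file of the other. Days given with a level below are those of the value table, and the tests were built so that the exchange does not alter them. MEF, heart and the arrays called day 7 and day 18 in the value table were scanned in 1 session, those called day 3 in another session and the later pair in a session of their own. The number of arrays limits the precision, and comparisons with 1 array per group have no replicate check.

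Of 436 probes at least 2 times MEF on all 6 first-round iCM arrays, heart was also at least 2 times MEF for 181, within a factor of 2 of MEF for 233 and under 0.5 times MEF for 22. The members come from the 233. A probe could meet the rule only with at least 50 on all 6 iCM arrays, which 7231 probes did, and the members are 2.36% of these. These 7231 probes are the comparison set used below, since brightness alone separates them from the rest of the chip.

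Absence from MEF and heart holds for fewer than the full set. By the value table, 48 of 171 members, or 28.1%, were at the floor of 25 on both MEF and heart. Another 11 were at the floor on MEF only and 17 on heart only, while 95, or 55.6%, were above the floor on both. By spot brightness 171 of 171 members exceeded the blank-spot limit on the MEF array and 165 on the heart array, although that limit is a lenient one. The group is therefore described here as probes with an excess in iCM over both controls, and only the 48 as listed at the floor in both.

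The median level of the members was 228 in GMT/miR-133 cells and 215 in GMT cells at day 3, 266 and 235 at day 7, and 232 and 223 at day 18. It was 41.1 in MEF and 37.3 in heart. The median member ranked at percentile 84.8 to 87.2 of all probes on the 6 iCM arrays, against 62.1 in MEF and 61.3 in heart. Both the separation from the controls and the closeness of the 6 medians rest on values that the rule used.

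**Figure D1:**
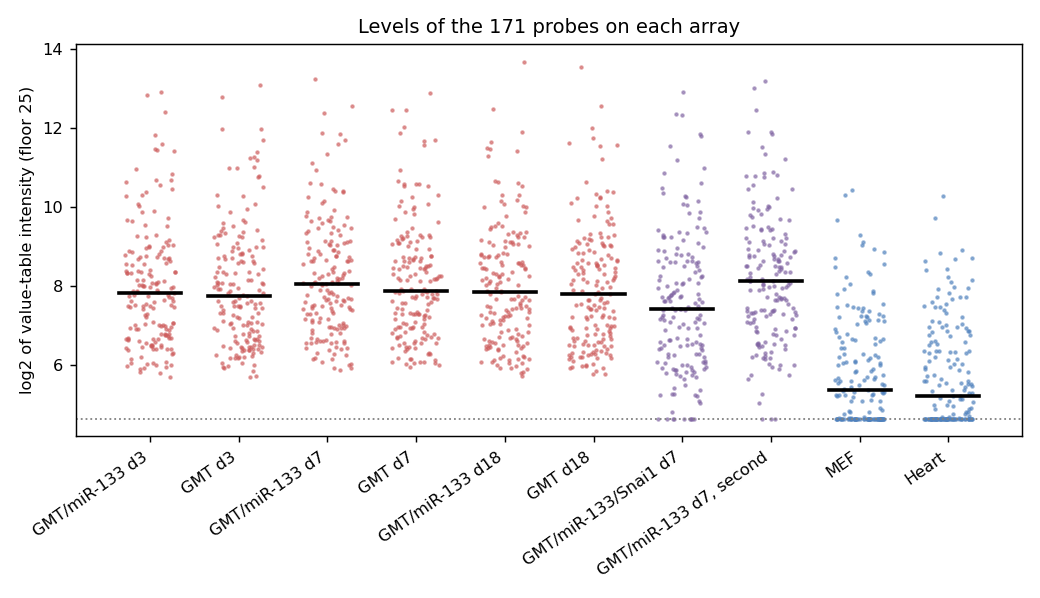
Levels of the 171 probes on the 10 arrays, as log2 of the value-table intensity with the floor drawn as a dotted line and the median of each array as a bar; points are probes. The 6 first-round iCM medians lie between 215 and 266 in linear units, the GMT/miR-133/Snai1 median is 171, and MEF and heart have medians of 41.1 and 37.3 with many probes on the floor.

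Most members exceeded the controls by a modest factor. Taken as the geometric mean of the 6 iCM arrays over the higher of MEF and heart, the excess ran from 2.21-fold to 62.7-fold, with a median of 3.65-fold and quartiles of 2.92-fold and 5.24-fold. It was at least 4-fold for 70 members, at least 8-fold for 21 and at least 16-fold for 8. The median excess was 4.87-fold for members at the floor on both controls, which is a lower bound, and 3.11-fold for those above the floor on both. By scan session the median over members was 3.64-fold on the 4 arrays of the session that held MEF and heart, and 3.41-fold on the pair of the second session.

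Most members varied by less than 2-fold across the 6 iCM arrays. The highest of the 6 levels was a median of 1.72 times the lowest, under 1.5 times for 47 members, under 2 times for 117 and at least 4 times for 12. The rule set a lower bound on these same levels. The spread was not taken for the comparison set, so whether members vary less than other bright probes is not known. Between the controls, heart was above MEF for 40 members, below MEF for 83 and equal at the floor for 48. Just inside the rule, the lowest iCM level was 2.00247 times MEF for M300008440 and 2.00397 times for M200007605. Just outside, it was 1.99994 times MEF for M200006160 and 1.99852 times for M300004989, so the edge of the set separates nearly equal probes.

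**Figure D2:**
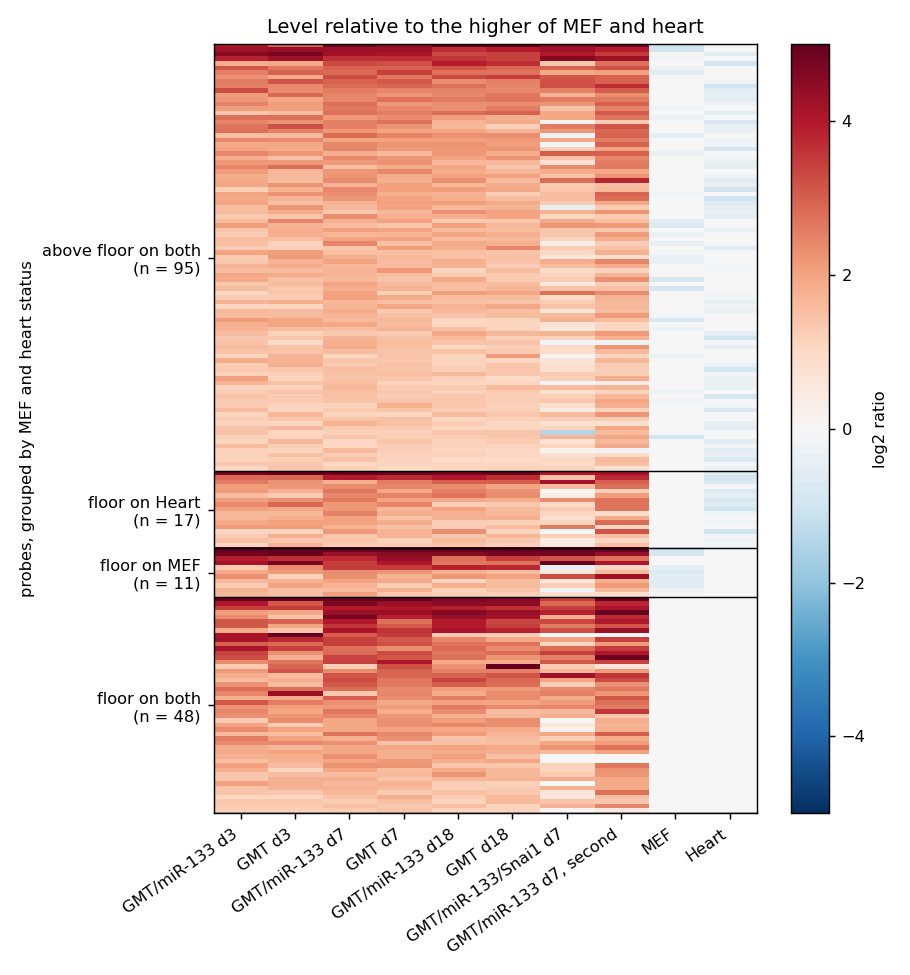
Log2 ratio of each array to the higher of MEF and heart for the 171 probes, 1 line per probe, grouped by whether MEF and heart are at the floor (95 above it on both, 17 at the floor on heart only, 11 on MEF only, 48 on both) and sorted by mean excess within a group. The 6 first-round columns are at or above a ratio of 2 by the rule, and the MEF and heart columns are at or below a ratio of 1 by definition. Of the later columns, GMT/miR-133/Snai1 has 121 probes at a ratio of 2 or more and the second GMT/miR-133 array 157.

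M300003025 had the largest excess, and was singled out after its values were seen. Its level was 2774, 3082 and 2879 at days 3, 7 and 18 in GMT/miR-133 cells, 3312, 3043 and 3123 in GMT cells, 25 in MEF and 48.3 in heart. It therefore stood at one level in all 6 iCM samples while MEF was at the floor.

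Among members at the floor in both controls, M400000427 read 811, 1412 and 627 at days 3, 7 and 18 in GMT/miR-133 cells and 768, 1269 and 593 in GMT cells. Both arms had their highest value at day 7. M400002454 read 399, 644 and 562 in GMT/miR-133 cells and 215, 494 and 548 in GMT cells, with GMT/miR-133 above GMT at each day.

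Among members above the floor in both controls, M200012637 was the brightest on the day 18 arrays. It read 5412, 9679 and 13070.4 at days 3, 7 and 18 in GMT/miR-133 cells, 2476, 7618 and 11929 in GMT cells, 178 in MEF and 339.6 in heart. No day overlapped another in the value table. M200004751 read 3624, 3756 and 2521 in GMT/miR-133 cells, 3992, 3719.5 and 3009 in GMT cells, 101 in MEF and 194 in heart, and was lowest at day 18 in both arms.

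The members were not gathered in one place on the chip. They occurred in 24 of 24 printed blocks, with 2 to 14 per block, and 0 pairs lay on adjacent spots. Identifiers of the M2 series made up 50.3% of the members, 46.2% of the 7231 probes and 34.2% of all probes. The M3 series made up 29.2%, 27.4% and 29.0%, and the M4 series 20.5%, 26.4% and 36.8% in the same order.

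Whether miR-133 altered the members was asked with limma on log2 scanner intensities, with the arm and the day in 1 linear model over 19932 probes and Benjamini-Hochberg adjustment. The members were chosen on the same 6 arrays by their level and not by the difference between arms. With the 3 days standing in for replicates, 0 of 171 members were called at an adjusted p of 0.05, as were 0.0% of all probes tested. The smallest adjusted p from limma was 0.213 among members and 0.202 over all probes. At an unadjusted p under 0.05 the limma test had 53 members, or 31.0%, against 9.63% of all probes and 15.97% of the 7231, with 41 of the 53 higher in GMT/miR-133 cells and 12 lower. The number of members was 34 without the pair called day 7 in the value table and 27 with the local background column. It was 36 with median scaling and 18 without the day in the model. Over all 19932 probes the number fell as well, from 1919 to 1471, 1211, 1236 and 560 in the same order. Under the other settings tried it was 44 to 56 members, and 1259 to 2143 of all probes tested. No member therefore passed the test with its adjustment, although 2 or 3 were called under 4 other settings of background, source or variance. Under those settings 79 to 161 of all probes tested were called.

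The size of the difference was small. Its median over members, GMT/miR-133 minus GMT, was 0.09 on the log2 scale, against 0.0031 over all probes tested and 0.0087 over the 7231 probes. By day the members' median averaged 0.092 ± 0.049 (SD, n = 3 days), from 0.053 to 0.148. The difference was positive for 119 members, or 69.6%, against 51.9% of all probes and 53.01% of the 7231.

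More members were higher than lower with miR-133 at all 3 days. GMT/miR-133 exceeded GMT at each of 3 days for 58 members, or 33.9%, against 14.9% of all probes tested and 16.8% of the 7231. GMT/miR-133 was below GMT at each of 3 days for 17 members, or 9.94%, against 14.7% of all probes and 15.4% of the 7231. In the value table the median difference was -0.0019 at day 3, 0.12 at day 7 and 0.045 at day 18 for members, beside -0.025, -0.051 and -0.030 for the 7231 probes. At day 3 the members thus had a median near 0 on that scale.

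**Figure D3:**
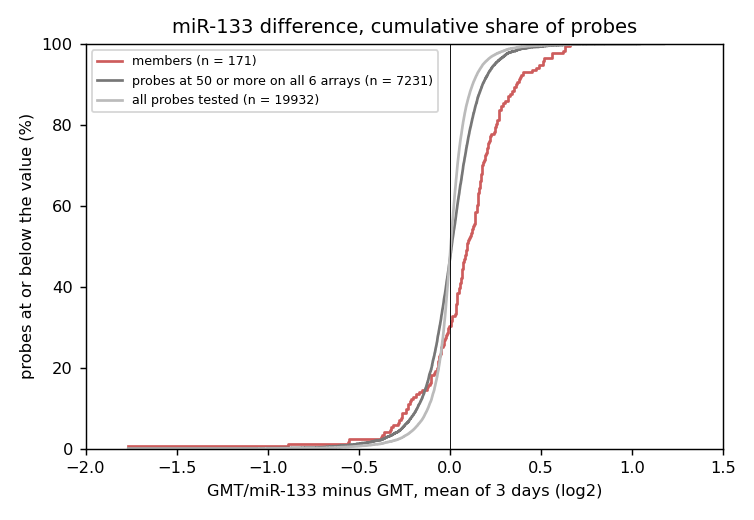
Cumulative share of probes (percent) by their difference GMT/miR-133 minus GMT, on the log2 scale as the mean of 3 days, for the 171 members, the 7231 bright probes and all 19932 probes tested. Above 0 the member curve lies right of the others; it crosses 50% at 0.09 and ends at 0.66 on the right and -1.77 on the left.

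The largest positive differences were those of M200000764 and M200008337, both at the floor in MEF and heart. M200000764 read 241, 263 and 167 at days 3, 7 and 18 in GMT/miR-133 cells and 85.8, 214 and 119.9 in GMT cells, a limma difference of 0.66 (SE 0.19, adjusted p = 0.419). M200008337 read 218, 397 and 391 in GMT/miR-133 cells and 194, 168 and 253 in GMT cells, a limma difference of 0.63 (SE 0.18, adjusted p = 0.403). Both were above GMT at all 3 days, and their arms overlapped across days.

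The most negative difference, that of M300002557, was the largest in size. It read 60.8, 58.3 and 121 at days 3, 7 and 18 in GMT/miR-133 cells and 190.5, 229.8 and 882 in GMT cells, and 25 in both MEF and heart. The arms did not overlap, yet the limma difference of -1.77 (SE 0.29) had an adjusted p of 0.278, and passed under 3 other settings. M400002502 read 136, 64.0 and 91.6 in GMT/miR-133 cells and 504, 134 and 127 in GMT cells, with a limma difference of -0.89 (SE 0.25, adjusted p = 0.406).

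Change with time was asked as day 18 minus the mean of days 3 and 7, with both arms of a day standing in for replicates. By limma 16 members rose at day 18, or 9.36%, against 4.62% of all probes tested and 6.4% of the 7231. Likewise 16 members fell, or 9.36%, against 4.01% of all probes and 7.05% of the 7231. The split by direction moved with the setting: 19 rose and 35 fell on the value table, 7 and 12 with median scaling, 6 and 12 with no filter on dim probes, 24 and 19 with no background subtraction. The split over all probes tested moved as well. It was 745 and 1972 of 10772 on the value table and 442 and 632 of 19932 with median scaling. With no filter it was 650 and 485 of 23473, and with no background subtraction 1412 and 1326 of 19932. The 32 calls rest on the arrays of the second scan session and on the background used. Without that pair, called day 3 in the value table, 0 members were called by limma, with a smallest adjusted p of 0.0545. With normexp on the local background column 0 members were called. Over all probes tested the calls were 34 and 0 in the same order. At an unadjusted p under 0.05 the limma test still had 62 members without that pair and 39 with the local background column, against 73 as reported. Over all probes tested these numbers were 3626, 2546 and 5561. With the arm, which pairs the days, left out of the model 20 members were called, 8 higher and 12 lower. Over all probes tested 719 were then called higher and 683 lower. Scan session and the day of that pair cannot be told apart.

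The members as a group did not move one way with time. Their median difference was 0.019 on the log2 scale, against -0.011 over all probes tested. The sign of the members' median turned with the setting. It was -0.078 on the value table, -0.035 with median scaling and 0.068 with the local background column. Over all probes tested the medians were -0.121, -0.017 and -0.0096 in the same order. The 16 that rose had a median of 0.72, from 0.37 to 1.48, and 5 of them were at least 2-fold. The 16 that fell had a median of -0.54, from -0.30 to -2.19, and 3 of them were at least 2-fold.

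By the days of the value table, 11 members, or 6.43%, increased in level from day to day in both arms, against 6.71% of the 7231 probes. A decrease at each step was found for 18, or 10.5%, against 17.6%. No test was made of these shares. By the days of the scanner files the counts were 3, or 1.75%, against 1.38%, and 15, or 8.77%, against 7.19%. Larger steps were rare: day 18 was at least 2-fold above the mean of days 3 and 7 in both arms for 4 members (2.34%, against 0.484% of the 7231) and at least 2-fold below it for 5 (2.92%, against 0.761%). Of the limma calls, 7 of the 16 higher and 10 of the 16 lower were ordered by day in the value table. The share among all probes called was not taken, nor were these counts by the days of the scanner files.

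**Figure D4:**
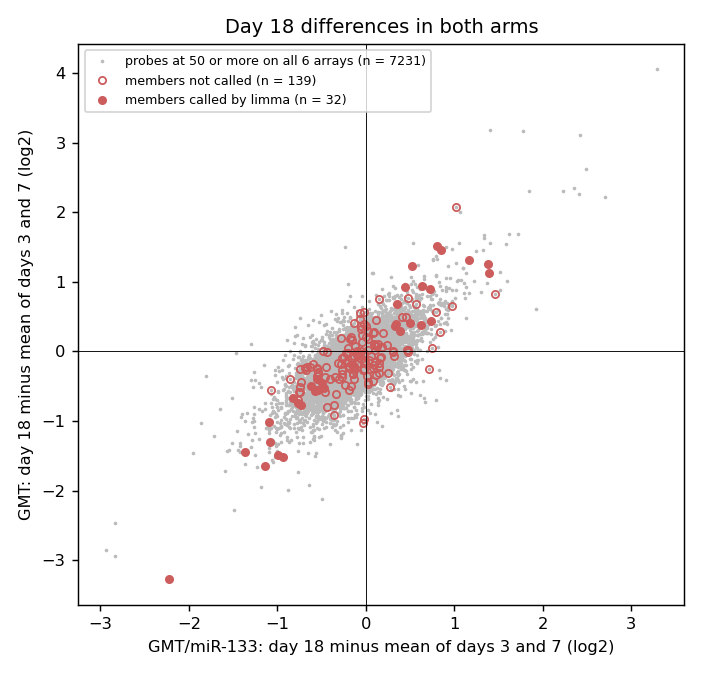
Difference between day 18 and the mean of days 3 and 7 in GMT/miR-133 cells (horizontal) and GMT cells (vertical), on the log2 scale, for members called by limma (filled, 32), members not called (open, 139) and the 7231 bright probes (grey). Most members sit near 0 in both arms, and the called ones spread along the diagonal in both directions.

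M200012637, whose levels stand above, had the largest positive day 18 difference at 1.48 (SE 0.21, limma adjusted p = 0.0283). It did not pass with the arm left out of the model, and neither it nor M200001989 passed with no filter on dim probes. The next largest was that of M300002557 at 1.38 (SE 0.30), which did not pass the test (limma adjusted p = 0.0653) but did so with no background subtraction, with an offset of 16 and on the value table, at 1.49, 1.52 and 1.55. Its day 18 value of 882 in GMT cells stood apart from 190.5 and 229.8 at days 3 and 7.

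M200001989 had the most negative difference at -2.19 (SE 0.32, limma adjusted p = 0.0304). It read 424, 202 and 62.7 at days 3, 7 and 18 in GMT/miR-133 cells and 1236, 281 and 60.8 in GMT cells, with 25 in MEF and heart. It was ordered by day in both arms by the days of the value table, and not by those of the scanner files. M400002638 fell as well, with a difference of -1.13 (SE 0.12, limma adjusted p = 0.0189). It read 438, 281 and 159.6 in GMT/miR-133 cells and 666, 412 and 167 in GMT cells, against 25 in MEF and 25.5 in heart.

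The later arrays took no part in the choice of members, although they are set against the same MEF and heart arrays. On the GMT/miR-133/Snai1 array 121 of 171 members, or 70.8%, were again at least 2 times MEF and at least 2 times heart, against 4.59% of the 7231 probes. On the second GMT/miR-133 array 157 members, or 91.8%, met that bound, against 10.7% of the 7231. Both arrays kept 118 members, neither kept 11, the Snai1 array alone kept 3 and the second GMT/miR-133 array alone kept 39. The shared controls favour members on both arrays, since a low MEF or heart value raises each ratio. The rule also used arrays labelled GMT/miR-133 and no Snai1 array, which can favour the count on the second GMT/miR-133 array. The blank spots of this session had medians of 48 on the Snai1 array and 45 on the second GMT/miR-133 array, against 14 to 24 on the other arrays, and the part of this background in the differences was not tested.

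Of the 28 members at least 4-fold over both controls on each of the 6 arrays, 28 were kept on both later arrays. These 28 were picked on values that the rule used and share its controls, and no other probes with such an excess were set beside them. M200001989, with a mean excess of at least 8.80-fold, was at the floor on both. Of members at the floor on both controls, 38 of 48 were kept on the Snai1 array and 43 of 48 on the second GMT/miR-133 array. Of those above the floor on both, 67 of 95 and 88 of 95 were kept in the same order. A level below the higher control was found for 8 members on the Snai1 array and for 2 on the second GMT/miR-133 array.

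Probes whose gain over MEF was shared with heart give a further comparison. Against MEF alone, 124 of the 171 members and 140 of the 181 heart-shared probes were at least 2 times MEF on the Snai1 array. On the second GMT/miR-133 array the counts were 158 of 171 and 178 of 181. No test was made of these shares, since each rests on 1 array.

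On the Snai1 array the largest excess was that of M400002638, which read 1243, or 48.7-fold over the higher control. M300003025 followed at 1845, or 38.2-fold. The lowest were M200006901 at 25, against 67.1 in MEF and 69.7 in heart, and M200003509 at 25, against 25 in MEF and 35.3 in heart. In first-round cells M200006901 had read 147 to 187 and M200003509 86.4 to 511, so both left the excess seen there.

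On the second GMT/miR-133 array M400000427 read 1499.5, at least 60.0-fold over the floor in both controls. M200009225 read 967, at least 38.7-fold, where the first-round arrays had given 96.6 to 602. The lowest ratios were 0.877 for M200006786, at 160.0 against 182 in MEF and 125 in heart, and 0.89 for M300008440, at 199.5 against 224 and 209.9. M300008440 is also named above as just inside the rule.

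**Figure D5:**
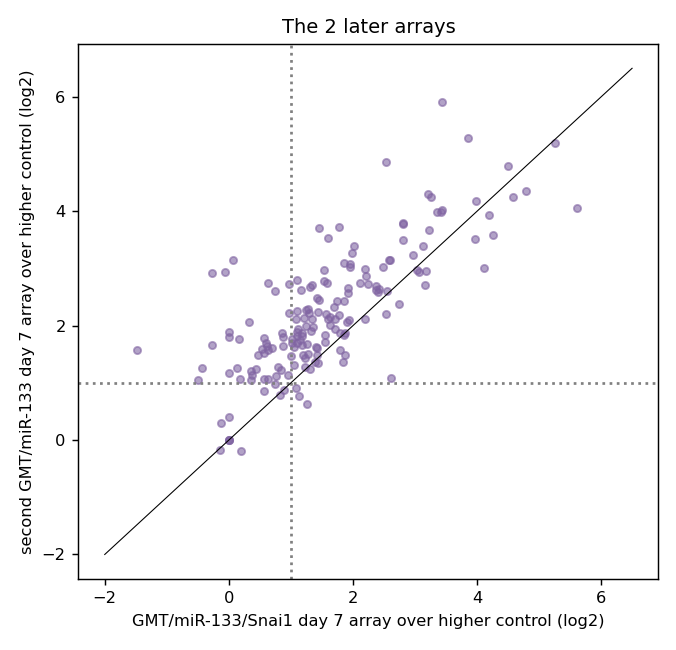
Excess over the higher of MEF and heart on the GMT/miR-133/Snai1 array (horizontal) and on the second GMT/miR-133 array (vertical), log2 scale, for the 171 probes; dotted lines mark a ratio of 2 and the solid line equality. Of the probes, 118 lie past both dotted lines, 39 only past the horizontal one, and most lie above the line of equality.

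Within the later session, most members were lower on the Snai1 array than on the second GMT/miR-133 array by the value table. The median difference, Snai1 minus second GMT/miR-133, was -0.59 on the log2 scale for members and -0.23 for the 7231 probes, and 30 of 171 members were above 0. At least 2-fold lower were 47 members, or 27.5%, against 7.55% of the 7231, and at least 2-fold higher were 3, or 1.75%, against 1.2%. From scanner intensities the number of members at least 2-fold lower was 20 with normexp and quantile normalization, 25 without background subtraction and 15 with median scaling. The share of the 7231 probes was not taken under these settings, so whether members still differ from them there is not known. Set against the first day 7 GMT/miR-133 array in place of the second, the median difference was -0.61 for members and -0.19 for the 7231 probes. That first array is of day 7 by the value table and of day 3 by the scanner files. Of the members 32 were at least 2-fold lower on the Snai1 array than on both GMT/miR-133 arrays called day 7 in the value table. At least 2-fold higher than on both were 2. The share of the 7231 probes was not taken for these counts. The rule required the first of those arrays to be high, which favours a lower Snai1 value in each comparison with it. It also required high values on every first-round GMT/miR-133 array, a label that the second array shares, and used no Snai1 array. This can favour a lower Snai1 value among members against the second array as well, so the shares of members and of the 7231 probes are not on equal terms.

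The largest positive difference was that of M400002638, at 1243 on the Snai1 array and 422 on the second GMT/miR-133 array, a log2 difference of 1.56. M300007328 read 155 and 53.9 in the same order, a log2 difference of 1.52. The most negative was M200005512, at 65.9 on the Snai1 array and 598 on the second GMT/miR-133 array, a log2 difference of -3.18. M200013145 read 51.8 and 438, a log2 difference of -3.08. On the first-round arrays M200005512 had read 234 to 557, all above its Snai1 value, and M200013145 101 to 247.

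By the days of the value table, both day 7 GMT/miR-133 arrays gave close medians for the set. By the scanner files the first of these arrays is of day 3. The median difference, second minus first array, was 0.055 on the log2 scale for members and 0.071 for the 7231 probes. At least 2-fold higher on the second array were 9 members, or 5.26%, against 2.64%, and at least 2-fold lower were 16, or 9.36%, against 3.5%. The rule required the first array to be high and did not use the second. With the first array taken by the days of the scanner files these counts were 22 higher and 10 lower. Scan session cannot be told apart from sample here.

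M300020770 read 708 on the second array and 183 on the first, a log2 difference of 1.95, and M200000764 read 723 and 263, a log2 difference of 1.46. Both also exceeded their highest value on the 6 first-round arrays. M200001989 was at the floor of 25 on the second array and at 202 on the first, a log2 difference of -3.01, and it was at 25 on the Snai1 array as well. M200003509 read 72.7 and 401, a log2 difference of -2.46.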

How the data were processed

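RNA from 10 mouse samples was hybridised to Toray one-colour arrays, per the labels' protocols. The deposited value table holds the authors' intensities on a linear scale: each column is a straight line of 1 scanner file, with a median of about 25.0 and dim probes left empty. Normalization and software are not given in the sources used here. Levels, members and comparisons with 1 array per group use this table with a floor of 25, so a fold against the floor is a lower bound. The deposited scanner intensities, median per spot per the file headers, were used for the tests. They were corrected by normexp on blank spots (limma 3.58.1, R 4.3.3, offset 50), quantile-normalized over 10 arrays and put on a log2 scale.

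Tests used limma's moderated linear model with day and arm over 19932 probes detected on at least 3 of 6 arrays, which left 2 residual degrees of freedom, and a Benjamini-Hochberg threshold of 0.05. The labels do not say that samples came from separate cultures, so p-values measure only the spread between these arrays. The model was tested on simulated data. Arms are paired by day in the labels, and the day is a term of the model.

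Because of the exchange of days 3 and 7 between the table and the scanner files, the day contrast takes day 18 against the mean of both. Probes were named per comparison as the 2 largest positive and 2 largest negative. The members and lists were chosen with earlier results of these data known. Gene and marker lists could not be matched, since 0 of 23473 probe identifiers occur in the gene table used here, and so the labels of MEF and heart were not checked against markers. Alternatives covered the floor, the fold, background, scaling, filters, the variance model, the pairing and leaving out each pair.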

Additional observations from a re-analysis of the deposited data

How the results depend on the processing

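The number of probes that meet the rule was 456 at 1.5 times and 60 at 3 times. On scanner intensities it was 83 with normexp and quantile normalization, of which 73 are members, 125 with no subtraction and 127 with median scaling. Leaving out 1 day gave 180 to 262 probes, more by construction since fewer arrays must pass; the count without day 3 was 262. Members called for miR-133 were 2 without background subtraction, 2 with an offset of 16, 2 on the value table and 3 with a trended and robust variance. The number was 0 as reported, and 0 when any pair was left out. Over all probes tested the calls under those 4 settings were 79, 102, 97 and 161, against 0 as reported. Members called for day 18 were 0 with local background, 19 with median scaling, 54 on the value table and 18 with no filter on dim probes. They were 32 as reported, and 0 to 34 when 1 pair was left out. Over all probes tested the calls were 0, 1074, 2717 and 1135 in the same order, against 1721 as reported. With 1 pair left out they were 34 to 1713. The replicate block is the day in the miR-133 test and the arm in the day 18 test: without this pairing 20 members were called for day 18 and 0 for miR-133. Members at least 2-fold lower on the Snai1 array than on the second GMT/miR-133 array numbered 20, 25 and 15 on scanner intensities (normexp, no subtraction, median scaling), against 47. Members at least 2-fold higher on the second than on the first day 7 array numbered 4 with normexp and 3 with median scaling, against 9. With the first array taken by scanner-file days, chosen after seeing the data, they were 22 higher and 10 lower. Apart from the days left out, the cause was not tested. Counts retained on the later arrays stayed within 1.5 times under the 5 settings tried. The number of arrays and the floor limit the rest: signal near the blank spots gives bounds, not folds.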
